A study of Mus musculus with 8 samples.

Results

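Oxidative phosphorylation genes were examined in RAW264.7 cells, a mouse macrophage line derived from a tumour, after exposure to recombinant follistatin-like protein (rFSTL1). The members were the rows of the count table whose symbol began with a prefix of a respiratory chain or ATP synthase subunit family (mt-Nd, mt-Co, mt-Atp, mt-Cytb, Ndufa, Ndufb, Ndufc, Ndufs, Ndufv, Uqcr, Cox4 to Cox8 and Atp5), together with Sdha, Sdhb, Sdhc, Sdhd and Cyc1 and without Ndufa4l2 and pseudogenes. This gave 110 of 22013 rows, 97 from the nuclear genome and 13 from the mitochondrial genome. Of these, 101 passed the filter on low counts (88 nuclear and 13 mitochondrial), among 10748 tested genes in all. The prefixes also took in 8 complex I assembly factors (Ndufaf), the ATP synthase inhibitor Atp5if1 and the supercomplex factor Cox7a2l.

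The control group was 4 libraries of cells given PBS, and the treated group was 4 libraries of cells given 100 ng/mL rFSTL1 and harvested 24 hours later. All 8 libraries came from the same line, the labels name no genetic change, and poly(A) RNA was sequenced. The libraries are numbered as in their titles. No source says that they came from separate cultures, so the p-values measure only the spread between these libraries, which may be technical. Total counts were 15062023 to 20234477 a library. All 8 macrophage markers examined were tested, whereas none of the 14 markers of endothelial, fibroblast, lymphoid, hepatic or epithelial cells reached the filter, and the highest count of any of these was 13. In such bulk RNA, a lower RNA content per cell and a smaller number of cells cannot be told apart.

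Oxidative phosphorylation couples electron transfer to ATP synthesis at the inner mitochondrial membrane. Complexes I and II pass electrons from NADH and succinate to ubiquinone, complex III passes them to cytochrome c, complex IV passes them to oxygen, and complex V, the ATP synthase, uses the proton gradient. Complexes I, III, IV and V combine subunits made from nuclear mRNAs with a few core subunits made from the circular mitochondrial DNA, while complex II is wholly nuclear. Macrophages are known to shift between this pathway and glycolysis as they are activated.

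Nuclear regulators known for this pathway include nuclear respiratory factor 1 (NRF1), the ETS-family factor GABP and YY1. The 200 bases before the RefSeq start (build GRCm38.p6) are shown for the 5 members with the smallest unadjusted p, because these carry the main comparison below. Capitals mark a match to GCGCNTGCG, a loose form of the NRF1 core, on either strand.
Ndufa12, chr10:94198835-94199034, plus strand: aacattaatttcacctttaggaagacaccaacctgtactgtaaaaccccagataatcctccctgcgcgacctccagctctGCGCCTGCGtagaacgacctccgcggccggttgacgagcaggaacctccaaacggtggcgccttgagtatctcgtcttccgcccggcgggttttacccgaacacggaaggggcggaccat
Ndufb11, chrX:20617620-20617819, minus strand: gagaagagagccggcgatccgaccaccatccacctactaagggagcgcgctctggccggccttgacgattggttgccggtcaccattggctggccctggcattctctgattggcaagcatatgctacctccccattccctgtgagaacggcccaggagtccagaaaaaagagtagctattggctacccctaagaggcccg
Ndufb10, chr17:24724424-24724623, minus strand: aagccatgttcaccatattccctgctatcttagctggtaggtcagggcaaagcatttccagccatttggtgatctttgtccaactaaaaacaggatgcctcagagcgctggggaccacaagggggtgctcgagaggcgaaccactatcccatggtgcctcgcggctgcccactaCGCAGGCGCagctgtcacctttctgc
Atp5if1, chr4:132535415-132535614, minus strand: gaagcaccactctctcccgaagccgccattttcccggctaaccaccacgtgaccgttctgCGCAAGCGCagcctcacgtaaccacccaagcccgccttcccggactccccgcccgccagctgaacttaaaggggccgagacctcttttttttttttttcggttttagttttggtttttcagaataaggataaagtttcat
Cox5b, chr1:36691287-36691486, plus strand: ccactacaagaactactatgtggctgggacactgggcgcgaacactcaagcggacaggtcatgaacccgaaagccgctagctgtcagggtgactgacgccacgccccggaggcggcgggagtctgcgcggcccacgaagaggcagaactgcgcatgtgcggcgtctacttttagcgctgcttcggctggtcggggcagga

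The match began 120 bases before the start in Ndufa12, 26 bases before it in Ndufb10 and 140 bases before it in Atp5if1, and these letters were not in the stretches printed for Ndufb11 and Cox5b. The core had first been searched as GCGCATGC, which matched in none of the 5 stretches, and the looser form was added after that was seen. RefSeq windows from 250 bases before to 50 bases after the start were found for 78 of the 97 nuclear members, 73 of them tested. GCGCATGC was in 16.4% of the 73 and in 3.05% of 27025 genes with a window. GCGCNTGCG was in 37.0% of the members and in 7.12% of all genes. The 2 forms overlap, and a window can hold both. The ETS letters CCGGAAG were in 26.0% of the members against 9.93% of genes, and the YY1 letters AAGATGGC in 15.1% against 3.19%. The 73 members had passed the filter on low counts, whereas the 27025 genes were not filtered, so the 2 sets are unlike. The median log2 fold change was 0.15 for the 27 members with GCGCNTGCG and 0.11 for the 46 without it, and it was 0.15 for the 12 with GCGCATGC and 0.11 for the 61 without. For the ETS letters it was 0.12 with and 0.11 without, and for the YY1 letters 0.11 with and 0.11 without. These differences were not tested. A match describes letters in these windows and is not evidence of binding.

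With rFSTL1, mRNAs of nuclear members were mostly a little higher and mRNAs of the mitochondrial genome mostly a little lower, but no member passed the test. In the edgeR quasi-likelihood fit, adjusted over all genes by Benjamini and Hochberg, 37 of the 10748 genes (0.344%) had an adjusted p under 0.05, 35 of them higher with rFSTL1 (0.326%), and 0 of the 101 members did. DESeq2 called 195 genes, 128 of them higher (1.19%), and 3 members, all higher. limma voom called 454 genes, 244 of them higher (2.27%), and 11 members, all higher. At a threshold of 0.1, 111 genes (1.03%) were higher, among them the members Ndufa12, Ndufb11 and Ndufb10. An unadjusted edgeR p under 0.05 was reached with a higher level by 8.29% of all tested genes and by 31 members (30.7%), and with a lower level by 7.56% of genes and by 3 members (2.97%), namely mt-Co2, Ndufaf4 and Ndufs1. The 4 rFSTL1 libraries all lay above the 4 PBS libraries in 4.63% of all genes and in 9 members (8.91%), and all below in 3.53% of all genes and in 0 members.

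By genome of origin, 76 of the 88 tested nuclear members had a positive log2 fold change, with a median of 0.11, whereas 11 of the 13 mitochondrial mRNAs had a negative one, with a median of -0.08. Across all tested genes 52.0% were positive and the median was 0.01. Per library, the median deviation of nuclear members from their PBS mean on the log2(CPM + 1) scale was 0.02, -0.00, 0.01 and -0.02 in PBS libraries 1 to 4 and -0.00, 0.17, 0.14 and 0.07 in rFSTL1 libraries 1 to 4. CPM is a gene's count scaled to a common library size. Library 1 of the rFSTL1 group therefore lay within the PBS range while the other 3 lay above it, and the groups overlapped. For the mitochondrial mRNAs the same measure was -0.12, 0.11, -0.00 and -0.04 in PBS and 0.02, 0.14, -0.15 and -0.42 in rFSTL1. Libraries 3 and 4 were low and library 2 was high, so these groups overlapped as well. Without rFSTL1 library 2 the nuclear median was 0.06, with 67 of 88 positive, and the mitochondrial median was -0.20, with all 13 negative. Without rFSTL1 library 4 the mitochondrial median was -0.00.

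**Figure D1:**
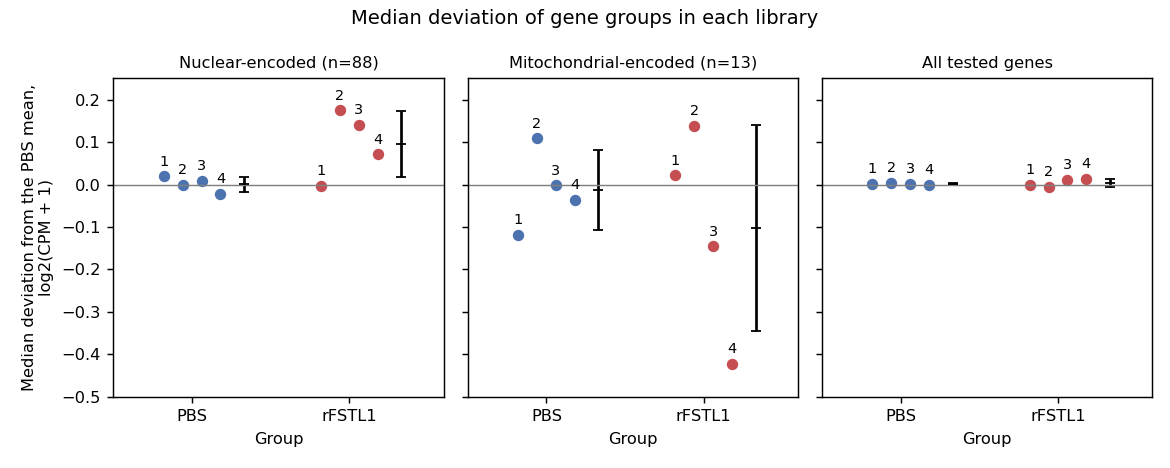
Median deviation from the PBS mean on the log2(CPM + 1) scale (vertical axis) in each library (numbered points) for nuclear members, mitochondrial mRNAs and all tested genes, with the mean and SD of the 4 libraries beside each group. The nuclear medians of rFSTL1 libraries 2 to 4 lie above PBS and library 1 lies among PBS, while the mitochondrial medians of rFSTL1 spread from 0.14 to -0.42.

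The 13 mitochondrial mRNAs made up 6.15% ± 0.25 (SD, n = 4) of the counts in PBS and 5.74% ± 0.74 (SD, n = 4) with rFSTL1. The share was 5.92% to 6.51% in PBS and 6.19%, 6.50%, 5.41% and 4.87% in rFSTL1 libraries 1 to 4. The 97 nuclear members took 1.04% ± 0.01 (SD, n = 4) in PBS and 1.09% ± 0.03 (SD, n = 4) with rFSTL1. The ratio of mitochondrial to nuclear counts was 5.58 to 6.30 in PBS and 5.96, 5.96, 4.86 and 4.42 in rFSTL1 libraries 1 to 4, so libraries 1 and 2 lay inside the PBS range and libraries 3 and 4 below it. Per kilobase of transcript, the median level in PBS was 75.8 CPM for the 80 tested nuclear members other than assembly factors and 2892 CPM for the 13 mitochondrial mRNAs, a ratio of 38.1.

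Transcript length and base composition moved with the nuclear differences. Across the 88 nuclear members the log2 fold change correlated with log10 transcript length at r = -0.49 and rho = -0.52, and with GC content at r = 0.45 and rho = 0.45. These are descriptions across genes that share 8 libraries, and genes are not replicates. The same correlations over 10719 tested genes with a known length were -0.22 and -0.27 for length, and 0.40 and 0.54 for GC content. The 30 members with transcripts under 700 bases had a median of 0.18, the 28 of 700 to below 1200 bases 0.10, and the 30 of 1200 bases or more 0.03. The correlation of a library's deviation with length was -0.46 in rFSTL1 library 2 and -0.45 in library 3, and that with GC content was 0.54 in library 3 and 0.62 in library 4, whereas in rFSTL1 library 1 they were 0.02 and 0.02. The correlation with length in rFSTL1 library 4 was -0.18, and that with GC content in rFSTL1 library 2, which had the highest nuclear deviation, was 0.07. In the PBS libraries they were 0.01, -0.13, -0.13 and 0.22 for length and 0.10, -0.18, 0.09 and 0.01 for GC content. After each library's trend over length and GC content across all tested genes was removed, the nuclear median was 0.03 with 55 of 88 positive, the mitochondrial median was -0.01 with 7 of 13 negative, and the median of all tested genes was -0.01. Ndufa12 alone among the members then had an adjusted p under 0.05 in edgeR. In that fit 79 of 10748 genes (0.735%) were called higher. Length and GC content differ between the complexes.

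**Figure D2:**
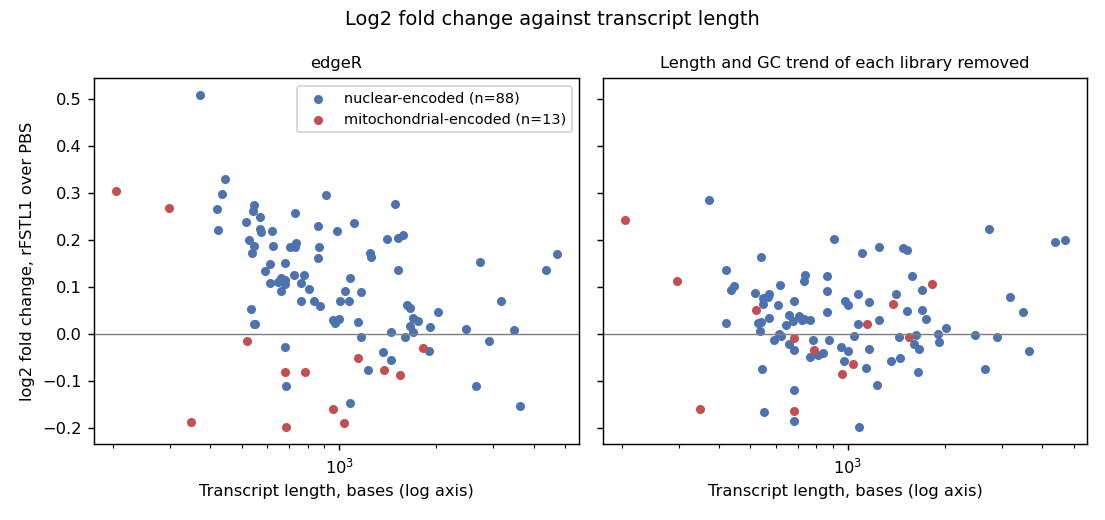
Log2 fold change of rFSTL1 over PBS (vertical axis) against transcript length in bases (log axis) for 88 nuclear (blue) and 13 mitochondrial (red) members, each point a gene, from edgeR before (left) and after (right) removal of each library's length and GC trend. The nuclear points slope down to the right before the removal (r = -0.49) and not after it (r = 0.03).

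Among nuclear members other than assembly factors, with Cox7a2l counted in complex IV and Atp5if1 in complex V, medians of the log2 fold change were 0.14 in complex I (37 genes, 35 positive), 0.01 in complex II (4 genes, 2 positive), 0.14 in complex III (9 genes, 7 positive), 0.11 in complex IV (12 genes, all 12 positive) and 0.11 in complex V (18 genes, 15 positive). With the trend removed they were 0.05, -0.04, 0.05, 0.05 and -0.00. For the mitochondrial mRNAs they were -0.08 in complex I (7 genes), -0.05 in complex III (mt-Cytb alone), -0.09 in complex IV (3 genes) and 0.11 in complex V (mt-Atp8 and mt-Atp6). These were 0.05, 0.02, -0.03 and 0.12 with the trend removed, so complexes I and III changed sign. The median deviation of nuclear subunits in rFSTL1 libraries 1 to 4 was 0.01, 0.21, 0.17 and 0.10 in complex I. It was -0.00, 0.20, 0.18 and 0.15 in complex III, and 0.02, 0.18, 0.15 and 0.10 in complex IV. In complex V it was -0.01, 0.23, 0.13 and 0.07, so library 2 was the highest in each. Differences between complexes were not tested.

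**Figure D3:**
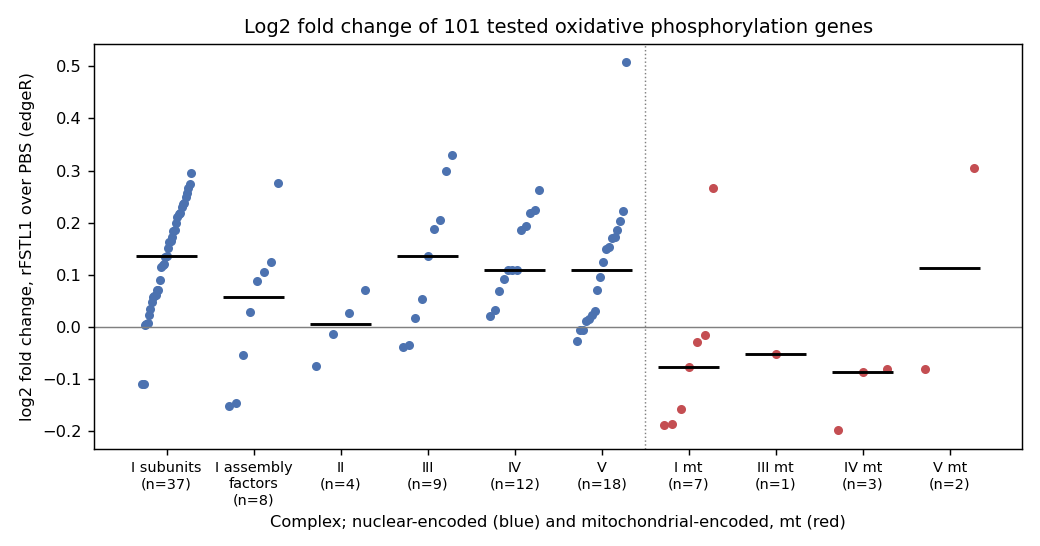
Log2 fold change of rFSTL1 over PBS (vertical axis, edgeR) for each of the 101 tested members, by complex, with nuclear genes in blue, mitochondrial genes in red and the median of each group as a black line. Nuclear complexes I, III, IV and V have medians of 0.11 to 0.14, complex II is at 0.01, and the mitochondrial mRNAs have medians below 0 in complexes I, III and IV and of 0.11 in complex V. With the length and GC trend removed (not drawn), mitochondrial complexes I and III were at 0.05 and 0.02.

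Complex I, the NADH dehydrogenase, holds the 3 members with the smallest adjusted p. Ndufa12, an accessory subunit, was at 80.8, 73.8, 77.4 and 75.8 CPM in PBS and at 85.2, 96.9, 90.8 and 89.4 CPM with rFSTL1. All 4 rFSTL1 libraries lay above all 4 PBS libraries. Its log2 fold change was 0.24 ± 0.05 (SE) with an edgeR adjusted p of 0.0585, and 0.17 with the trend removed. Ndufb11, an accessory subunit of the membrane arm, was at 44.6, 46.2, 47.02 and 44.6 CPM in PBS and at 51.8, 63.1, 59.2 and 50.04 CPM with rFSTL1. The groups did not overlap, and the edgeR log2 fold change was 0.30 ± 0.07 (SE) with an adjusted p of 0.0758. Ndufb10, also of the membrane arm, was at 49.6, 50.8, 54.6 and 51.0 CPM in PBS and at 55.4, 65.4, 59.4 and 65.8 CPM with rFSTL1. Its groups were separate as well, with an edgeR log2 fold change of 0.26 ± 0.06 (SE) and an adjusted p of 0.0789. With the trend removed the values were 0.20 for Ndufb11 and 0.11 for Ndufb10, and their edgeR adjusted p were 0.119 and 0.339, against 0.0435 for Ndufa12. For each of these 3 genes the exact two-sided permutation p was 0.0286, the smallest that 70 assignments can give. It follows from the lack of overlap and adds nothing to it. Such separation was seen in 4.63% of all genes with higher and 3.53% with lower levels.

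The 30 tested accessory subunits of complex I had a median of 0.16, with 29 positive, and the 7 nuclear core subunits, which carry the flavin and iron-sulfur centres and the quinone site, a median of 0.06, with 6 positive. With the trend removed these were 0.05 and -0.00, and the median transcript lengths were 812 and 1623 bases. Ndufs1, a core subunit with iron-sulfur clusters, was chosen after its values were seen. It was at 153 to 165 CPM in PBS and at 141 to 158 CPM with rFSTL1, with a log2 fold change of -0.11 ± 0.05 (SE) and an edgeR adjusted p of 0.262. The 8 assembly factors, which help build complex I without staying in it, had a median of 0.06 with 5 positive. With the trend removed it was 0.01 with 4 positive. Ndufaf3 had a log2 fold change of 0.28 (edgeR adjusted p = 0.288), and Ndufaf4 and Ndufaf6 had -0.15 and -0.15 (adjusted p = 0.300 and 0.576). Without PBS library 2 Ndufaf3 had 0.17. Without rFSTL1 library 4 Ndufaf4 had -0.10 and Ndufaf6 -0.05, and without rFSTL1 library 1 Ndufaf6 had -0.24. With the trend removed Ndufaf3 had 0.18, Ndufaf4 -0.04 and Ndufaf6 -0.20. Their levels overlapped between the groups.

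Complex II, succinate dehydrogenase, also belongs to the citric acid cycle. The log2 fold changes were -0.01 for the flavoprotein Sdha, 0.03 for the iron-sulfur subunit Sdhb, 0.07 for the membrane anchor Sdhc and -0.08 for the anchor Sdhd, with edgeR adjusted p of 0.425 to 0.879. Sdhc had 0.04 without rFSTL1 library 2. Sdha was at 279 ± 4.77 CPM in PBS and 276 ± 4.91 CPM with rFSTL1 (SD, n = 4).

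Complex III is the cytochrome bc1 complex. Its small subunits Uqcr11 and Uqcr10 had the highest values. Uqcr11 was at 31.6, 32.0, 30.9 and 27.3 CPM in PBS and at 29.9, 49.9, 36.7 and 36.7 CPM with rFSTL1. Library 1 lay among PBS and library 2 stood above the rest. The edgeR log2 fold changes were 0.33 ± 0.11 (SE) for Uqcr11 and 0.30 ± 0.11 (SE) for Uqcr10, with adjusted p of 0.205 and 0.212. They were 0.17 and 0.19 without rFSTL1 library 2, and 0.10 and 0.09 with the trend removed. The Rieske protein Uqcrfs1 and the core protein Uqcrc2 had the lowest, at -0.04 and -0.04 (edgeR adjusted p = 0.767 and 0.705).

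Complex IV, cytochrome c oxidase, contributed 3 of the 9 members without overlap, complex I 5 and complex V 1. Such a separation with higher levels was seen in 4.63% of all genes. Cox5b, a structural subunit, was at 118, 116, 122 and 108 CPM in PBS and at 126, 145, 132 and 127 CPM with rFSTL1. Cox6b1, which faces the intermembrane space, was at 97.4, 96.0, 99.7 and 94.4 CPM in PBS and at 104, 133, 113 and 101 CPM with rFSTL1. Cox4i1, the common isoform of subunit IV, was at 237, 240, 229 and 230 CPM in PBS and at 242, 244, 262 and 260 CPM with rFSTL1. In each of the 3 every rFSTL1 library was above every PBS library, by a log2 fold change of 0.19, 0.22 and 0.11, and the edgeR adjusted p were 0.137, 0.169 and 0.236. With the trend removed they were 0.12, 0.10 and -0.05, and without rFSTL1 library 2 Cox6b1 had 0.12. Cox7c had a log2 fold change of 0.26 and Cox6a1 of 0.22 (edgeR adjusted p = 0.275 and 0.251). These were 0.16 and 0.03 with the trend removed. Without rFSTL1 library 2 Cox7c had 0.14, and without rFSTL1 library 4 Cox6a1 had 0.12. Without rFSTL1 library 2 Cox6a1 had 0.31 and passed the edgeR test (adjusted p = 0.0345), the 1 member called in that setting. Cox6a1 was at 126 to 131 CPM in PBS and at 140, 118, 157 and 181 CPM with rFSTL1, so library 2 was the lowest of all 8. Ndufa4, named for complex I but a complex IV subunit, had 0.11, Cox7a2 had 0.09 (0.05 without rFSTL1 library 2), Cox7a2l had 0.07 and Cox8a had 0.02. These 4 were 0.06, -0.02, 0.02 and -0.17 with the trend removed.

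Isoforms tied to other tissues or to low oxygen were near absent. Cox4i2, the hypoxia-linked isoform of subunit IV, reached at most 12 counts, and the muscle isoforms Cox7a1 and Cox6a2 at most 17 and 10. These 3 were not tested. Cox8b, Cox8c, Cox6b2, Cox7b2, Ndufb11b and a second identifier of Atp5po had 0 counts in every library. These 9 rows and the 101 tested account for all 110 members.

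In complex V, the 3 genes for the c-ring had a median log2 fold change of 0.17, the 5 small membrane subunits 0.15, the 4 tested peripheral stalk subunits 0.03 and the 5 genes of the F1 head and central stalk 0.02. With the trend removed these were 0.03, 0.00, -0.04 and -0.00. The median deviation of the c-ring genes in rFSTL1 libraries 1 to 4 was -0.08, 0.39, 0.19 and 0.12. That of the small membrane subunits was -0.06, 0.37, 0.20 and 0.04, so library 2 was the highest in both. Atp5mc1, Atp5mc2 and Atp5mc3, which encode the same c subunit, had 0.17, 0.19 and 0.12 (edgeR adjusted p = 0.239, 0.223 and 0.438). Without rFSTL1 library 2 they had 0.15, 0.10 and 0.02, and with the trend removed 0.20, 0.03 and 0.03. The transcripts used for that removal had 4715, 731 and 723 bases, so the 3 genes were not treated alike. Atp5f1e, the epsilon subunit, had 0.22, which was 0.13 without rFSTL1 library 2 and 0.02 with the trend removed. Atp5pd and Atp5f1c, of the peripheral and central stalks, had -0.03 and -0.01, and -0.12 and -0.03 with the trend removed. Atp5if1, which blocks ATP hydrolysis by the enzyme, was at 98.5, 98.5, 104 and 101 CPM in PBS and at 108, 122, 112 and 110 CPM with rFSTL1. The groups did not overlap, and the edgeR log2 fold change was 0.17 ± 0.05 (SE) with an adjusted p of 0.130, and 0.03 with the trend removed.

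Atp5me, a small membrane subunit with a transcript of 371 bases, had the highest log2 fold change of the members, 0.51 ± 0.21 (SE), with an edgeR adjusted p of 0.257. It was at 21.7, 23.2, 23.9 and 20.2 CPM in PBS and at 20.6, 53.1, 29.4 and 24.1 CPM with rFSTL1. The value rested on library 2, and without that library it was 0.14. It was 0.28 with the trend removed.

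**Figure D4:**
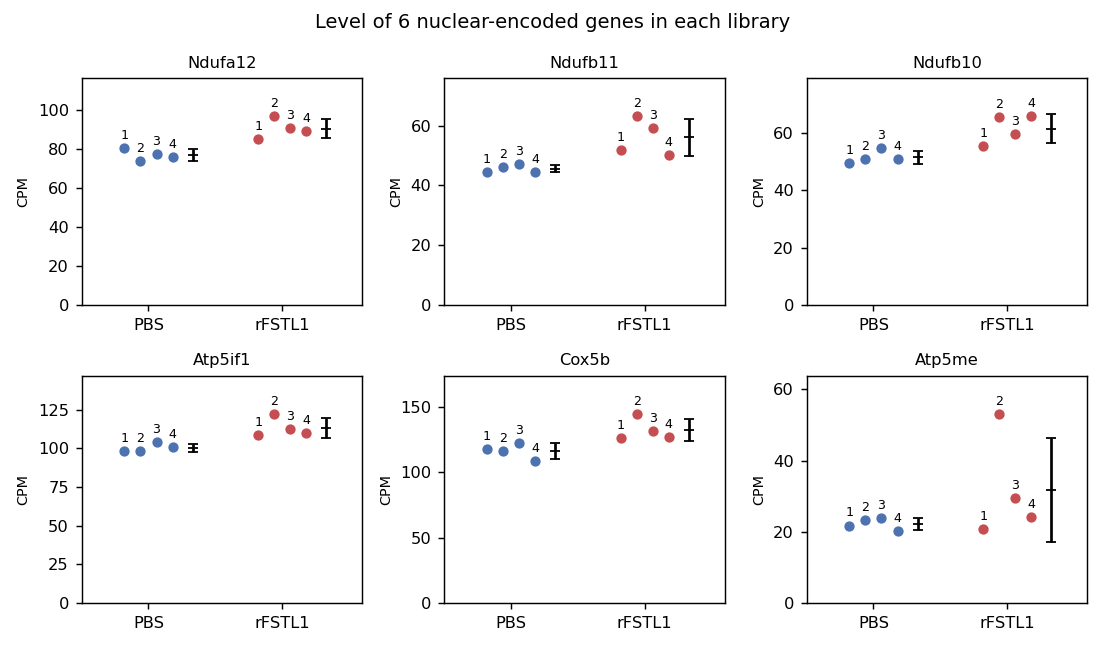
CPM (vertical axes, from 0) of 6 nuclear members in each library (numbered points), with the mean and SD of 4 libraries beside each group. In Ndufa12, Ndufb11, Ndufb10, Atp5if1 and Cox5b every rFSTL1 point is above every PBS point, while Atp5me at 53.1 CPM in rFSTL1 library 2 stands apart from the other 7.

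The mitochondrial mRNAs come from the 2 strands of a compact circle, where genes abut or overlap. The 2 longer stretches shared by neighbours on the same strand are shown because a read within them belongs to both genes. Capitals mark the start codon of the second gene and the stop codon of the first.
mt-Atp8 and mt-Atp6, chrM:7927-7969, plus strand: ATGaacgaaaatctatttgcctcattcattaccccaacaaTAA
mt-Nd4l and mt-Nd4, chrM:10167-10173, plus strand: ATGcTAA

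These letters are from the GENCODE annotation of GRCm38, in which mt-Atp8 has 204 bases, 43 of them shared, and mt-Nd4l has 297 bases, 7 of them shared. mt-Nd6 lies on the opposite strand and its end overlaps that of mt-Nd5, and the last base of mt-Atp6 is also the first of mt-Co3. How reads were split was not stated, and the library kit named in the labels does not mark strand, so the values of these pairs are uncertain.

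Cytochrome c oxidase mRNAs were the most abundant per kilobase. mt-Co2 was at 7626, 9291, 8706 and 7773 CPM in PBS and at 8310, 8165, 6747 and 5876 CPM with rFSTL1. Libraries 3 and 4 lay below every PBS library and libraries 1 and 2 among them. The log2 fold change was -0.20 ± 0.09 (SE), with an edgeR adjusted p of 0.295. With the trend removed it was -0.16, with an edgeR adjusted p of 0.0695. mt-Co1 and mt-Co3 had -0.09 and -0.08 (edgeR adjusted p = 0.485 and 0.498), and -0.01 and -0.03 with the trend removed. The complex III mRNA mt-Cytb was at 6516 ± 249 CPM in PBS and 6286 ± 764 CPM with rFSTL1 (SD, n = 4), a log2 fold change of -0.05.

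Of the complex I mRNAs, mt-Nd1, mt-Nd2 and mt-Nd3 had -0.16, -0.19 and -0.19 (edgeR adjusted p = 0.425, 0.444 and 0.630), which were -0.09, -0.06 and -0.16 with the trend removed. mt-Nd4, mt-Nd5 and mt-Nd6 had -0.08, -0.03 and -0.02, which changed sign to 0.06, 0.11 and 0.05 with the trend removed. mt-Nd1 was at 5214, 5810, 5374 and 5284 CPM in PBS and at 5345, 5836, 4476 and 3770 CPM with rFSTL1, the same order of libraries as mt-Co2 at the low end. The ATP synthase mRNA mt-Atp6 had -0.08, and -0.01 with the trend removed. Without rFSTL1 library 4 the values were -0.11 for mt-Co2, -0.03 for mt-Co1, -0.02 for mt-Co3, -0.05 for mt-Nd1, -0.10 for mt-Nd2, -0.01 for mt-Nd3, -0.00 for mt-Nd4, 0.01 for mt-Cytb and 0.02 for mt-Atp6. Without rFSTL1 library 2 they were further from 0, at -0.14 for mt-Co1, -0.12 for mt-Co3, -0.27 for mt-Nd1, -0.41 for mt-Nd3, -0.18 for mt-Nd4, -0.13 for mt-Cytb and -0.20 for mt-Atp6. mt-Nd2 was at -0.29 without rFSTL1 library 1.

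The positive values belonged to mt-Atp8 and mt-Nd4l, which have the shortest sequences of the 13. mt-Nd4l was at 308, 370, 391 and 330 CPM in PBS and at 342, 729, 346 and 268 CPM with rFSTL1. mt-Atp8 was at 314, 491, 656 and 341 CPM in PBS and at 467, 1061, 397 and 307 CPM with rFSTL1. In both, library 2 alone stood above the PBS range. The log2 fold changes were 0.27 and 0.30 (edgeR adjusted p = 0.557 and 0.642), and without that library they were -0.14 and -0.22. They were 0.11 and 0.24 with the trend removed.

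**Figure D5:**
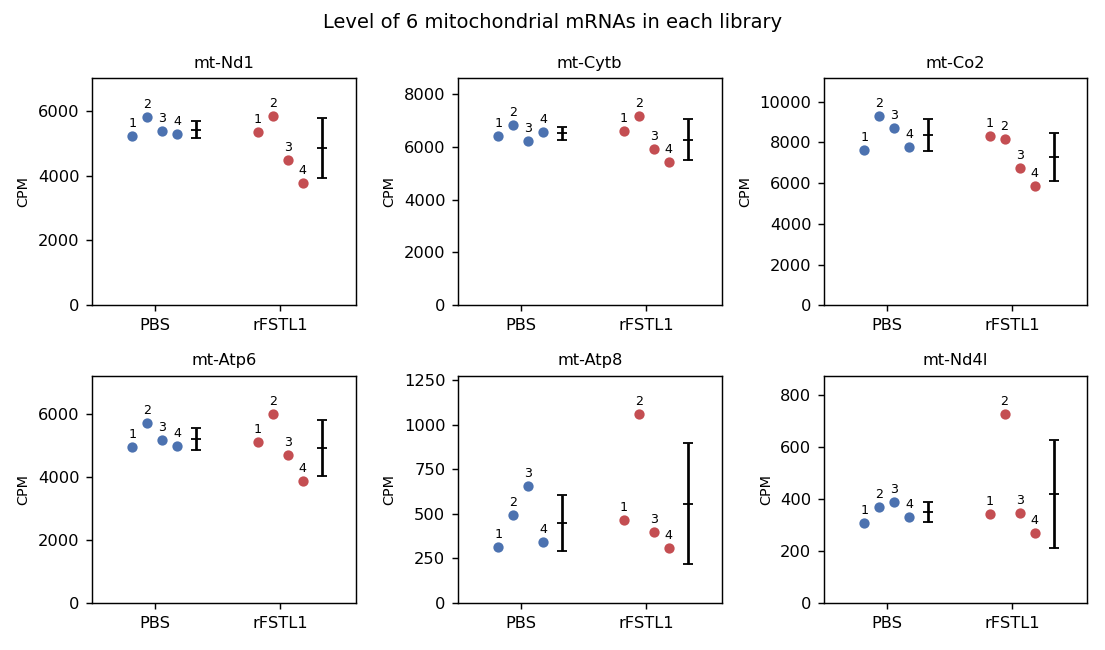
CPM (vertical axes, from 0) of 6 mitochondrial mRNAs in each library (numbered points), with the mean and SD of 4 libraries beside each group. rFSTL1 libraries 3 and 4 are the lowest in mt-Nd1, mt-Cytb, mt-Co2 and mt-Atp6, and library 2 stands apart in mt-Atp8 (1061 CPM) and mt-Nd4l (729 CPM).

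Genes that work beside the respiratory chain were read from lists, which were chosen with earlier results of these data known. No gene passed the edgeR test among 21 of the citric acid cycle and pyruvate entry (11 positive, median 0.00), 38 further assembly factors (18 positive, median -0.01), 16 electron carriers and coenzyme Q enzymes (8 positive, median 0.01), 22 of mitochondrial DNA expression (11 positive, median -0.00), 9 tested regulators of mitochondrial genes (4 positive, median -0.01), 7 tested carriers and channels of the membranes (3 positive, median -0.01), 8 of mitochondrial peroxide defence (6 positive, median 0.06) and 8 macrophage markers (6 positive, median 0.05). At an unadjusted edgeR p under 0.05, reached by 8.29% of all genes with higher and 7.56% with lower levels, these lists held between 0 and 3 genes with higher levels each, and between 0 and 2 with lower levels except for mitochondrial DNA expression. In that list 4 of 22 genes did so with lower levels and 1 with a higher level. In further assembly factors all rFSTL1 libraries lay above all PBS libraries in 4 of 38 genes (Uqcc2, Nubpl, Cox19 and Uqcc3), against 4.63% of all genes, and in mitochondrial DNA expression in 1 of 22 (Slirp). All rFSTL1 libraries lay below all PBS libraries in 4 of the 22, namely Tfam (-0.14), which packages mitochondrial DNA, Lrpprc (-0.12), the mRNA-stabilising partner of Slirp, Fastkd5 (-0.18) and Tefm (-0.16), against 3.53% of all genes. Cox19, Uqcc3 and these 4 were chosen after their values were seen. For Tfam, Lrpprc, Fastkd5 and Tefm the edgeR adjusted p were 0.191 to 0.425. Their log2 fold changes were -0.09, -0.09, -0.13 and -0.15 with the trend removed. After removal of the trend, the medians of peroxide defence and macrophage markers were 0.00 and 0.00, that of electron carriers was -0.05, and those of the others lay between -0.04 and 0.01. The 3 largest edgeR log2 fold changes of each list follow, none of them past the test, and the second value of each pair is that with the trend removed. In the citric acid cycle they were Dld (-0.17 and -0.08) and Pdha1 (-0.09 and -0.05), both of pyruvate dehydrogenase, and Ogdh (0.09 and 0.06). Among assembly factors they were Uqcc2 (0.36 and 0.15), of complex III, Nubpl (0.35 and 0.41), of complex I, and the copper chaperone Cox17 (0.33 and 0.36). Among electron carriers and coenzyme Q enzymes they were Coq8a (-0.38 and -0.42), cytochrome c (Cycs, -0.17 and -0.08) and Coq6 (0.13 and 0.05). In mitochondrial DNA expression they were Slirp (0.29 and 0.34), which stabilises mitochondrial mRNAs, the polymerase subunit Polg2 (-0.26 and -0.32) and Mterf1a (-0.21 and -0.13). Among regulators they were Esrra (0.14 and 0.03), Gabpa (-0.13 and -0.04), a subunit of GABP, and Ppargc1b (0.10 and 0.01). Among membrane carriers and channels they were Vdac3 (-0.12 and -0.10), Ucp2 (0.10 and 0.04) and Vdac1 (0.05 and 0.03). In peroxide defence they were Prdx5 (0.27 and 0.15), Gpx4 (0.20 and 0.06) and Gpx1 (0.08 before, and -0.04 after, a change of sign). Among macrophage markers they were Ptprc (-0.13 and -0.04), Spi1 (0.13 and 0.03) and Adgre1 (0.10 and 0.13). Without the removal their edgeR adjusted p lay between 0.0760 for Prdx5 and 0.808 for Adgre1. Several rested on 1 library. The value without rFSTL1 library 2 was 0.08 for Cox17, 0.15 for Slirp, 0.02 for Vdac1, -0.33 for Mterf1a and -0.00 for Adgre1. Without rFSTL1 library 4 it was 0.04 for Ogdh, 0.07 for Coq6, -0.09 for Mterf1a, 0.01 for Ppargc1b, -0.08 for Vdac3, 0.04 for Ucp2 and 0.07 for Spi1. It was -0.12 for Polg2 without PBS library 1, -0.16 for Coq8a without PBS library 2, 0.06 for Gpx1 without rFSTL1 library 3 and -0.10 for Tefm without rFSTL1 library 1. The transcripts used for Cox17 and Slirp in the removal of the trend had 3690 and 2701 bases.

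Among 11 tested genes that link low oxygen to mitochondria, 10 were positive, with a median of 0.09, and 1 passed, against 0.344% of all genes. After removal of the trend 7 were positive, the median was 0.04 and 3 passed, all higher, against 0.735% of all genes. The list was chosen with earlier results of these data known, so these shares are not an independent comparison. Hif1a, the oxygen-regulated transcription factor, was the 1 negative gene, at -0.13 (edgeR adjusted p = 0.234), and -0.04 after the removal. Bnip3, a mitophagy receptor of the outer membrane, rose from 154, 147, 144 and 108 CPM in PBS to 195, 199, 179 and 174 CPM with rFSTL1. The groups did not overlap, the log2 fold change was 0.43 ± 0.08 (SE) and the edgeR adjusted p was 0.0366, and with the trend removed the log2 fold change was 0.50. With single libraries left out it was 0.33 to 0.48, and its edgeR adjusted p was above 0.05 without PBS library 2 (0.1004), PBS library 3 (0.115), rFSTL1 library 1 (0.0590) and rFSTL1 library 3 (0.0939). Higd1a, a respiratory chain factor induced by low oxygen, had 0.46 and Bnip3l had 0.25, with edgeR adjusted p of 0.0964 and 0.0982. Higd1a had 0.29 without rFSTL1 library 2. The 3 that passed with the trend removed were Bnip3, Bnip3l (0.32, edgeR adjusted p = 0.00091) and Pdk1 (0.22, adjusted p = 0.0236), the kinase that restrains pyruvate dehydrogenase, which was at 0.18 with an adjusted p of 0.145 before the removal and was chosen after its values were seen.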

How the data were processed

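RAW264.7 cells given PBS (n = 4) or rFSTL1 (n = 4) were compared. The authors deposited expected counts (estimated counts) for 22013 genes without normalization; 13% of nonzero values were not whole, and all were rounded. The submitters' processing notes name Bowtie2 2.2.8, HISAT2, StringTie 1.3.1 and DESeq2, without roles. The authors' genome build and annotation are not given in the sources used here. The members and gene lists were chosen with earlier results of these data known.

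Genes passing edgeR's filterByExpr (minimum count 10) were TMM-scaled and compared with edgeR 4.0.16 (quasi-likelihood, R 4.3.3) across all 10748 genes (Benjamini-Hochberg, threshold 0.05). The standard error is the log2 fold change divided by the root of F. Exact permutation tests ran over 70 assignments on log2(CPM + 1), with a pseudocount of 1. Alternatives used DESeq2 1.42.0, limma 3.58.1 (voom, sample quality weights), other scalings and filters, each library left out, a replicate block and removal of length and GC trends (splines, 4 degrees of freedom). Transcript lengths and GC content came from GENCODE M21, for 99.7% of tested genes and all 101 tested members. Each gene was given its longest transcript, with principal protein-coding transcripts preferred, which need not be the form expressed here. The script was tested on simulated data.

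Named were members with an adjusted p under 0.05, the mitochondrial mRNAs, the 2 highest and 2 lowest nuclear members of each complex, the 5 smallest p-values, members with isoform partners, complex II and Atp5if1, and in each list the called genes and the 3 with the largest absolute log2 fold change. Ndufs1, Cox19, Uqcc3, Tfam, Lrpprc, Fastkd5, Tefm, Pdk1, Hif1a, the transcript length and subunit classes, and the looser NRF1 letters were chosen after values were seen.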

Additional observations from a re-analysis of the deposited data

Results flagged for a closer look

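Within groups of 4 libraries, 92 sets of values of members and of summed shares were examined for a library far from the other 3, and 5 were found, where about 4.6 are expected by chance. mt-Nd4l was at 729 CPM in rFSTL1 library 2, against 268 to 346 CPM in the other 3. Uqcrc2 was at 195 CPM in the same library, against 204 to 205 CPM. Uqcrfs1 was at 108 CPM in PBS library 4, against 102 to 103 CPM. Ndufaf3 was at 6.42 CPM in PBS library 2, against 8.67 to 8.98 CPM. The nuclear members took 1.06% of counts in PBS library 1, against 1.03% in the other 3.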

How the results depend on the processing

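The count of members called, 0 of 101 in the main edgeR test, was 3 with DESeq2, with all genes of at least 1 count, and at a threshold of 0.1 (Ndufa12, Ndufb10 and Ndufb11 each time). It was 1 with upper-quartile scaling and with the length and GC trend removed (Ndufa12 in both), and 11 with limma voom. It was 0 to 7 when a library was left out, with 7 without rFSTL1 library 1, 1 without library 2 (Cox6a1) and 1 without library 4 (Ndufb11). All calls in these alternatives were of higher levels. Over all genes, 37 were called in the main test, 195 with DESeq2 (128 higher), 56 with upper-quartile scaling, 454 with limma voom (244 higher), 127 with all genes of at least 1 count, 98 with the trend removed and 133 at 0.1. With a library left out, 11 to 99 were called, of 10760 to 10838 tested. The member counts with a library left out were not set beside the gene count of the same fit. The nuclear median log2 fold change moved from 0.11 to 0.030 with the trend removed and was 0.06 to 0.14 with a library left out. The mitochondrial median, -0.08 in the main test, was -0.0072 with the trend removed, where the median of all genes was -0.0062, and -0.20 to -0.0027 with a library left out. Replicate numbers did not pair the libraries (correlations of deviations -0.09, 0.08, -0.01 and 0.00), and with the replicate block 0 members were called.

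Signs changed in 29 comparisons of the 44 named members, and the other members were not counted. With the trend removed, log2 fold changes were -0.072 for Sdhb, 0.00091 for Uqcrc2, -0.049 for Cox4i1, -0.022 for Cox7a2, -0.17 for Cox8a, 0.065 for mt-Nd4, 0.11 for mt-Nd5, 0.052 for mt-Nd6 and 0.020 for mt-Cytb. Atp5f1c was 0.0044 with upper-quartile scaling and 0.0077 with limma voom. With a library left out, the ranges were -0.028 to 0.013 for Atp5f1c, -0.061 to 0.0042 for Atp5pd, -0.049 to 0.12 for Cox8a, -0.073 to 0.012 for Uqcrfs1, -0.22 to 0.54 for mt-Atp8, -0.20 to 0.017 for mt-Atp6, -0.087 to 0.017 for mt-Nd5, -0.20 to 0.11 for mt-Nd6, -0.13 to 0.012 for mt-Cytb and -0.14 to 0.43 for mt-Nd4l. The cause was not tested.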
